A study of Mus musculus with 6 samples.

Results

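The genes described here encode 3 families of cell adhesion molecules: 14 integrin chains, 13 cadherins with their catenin partners, and 8 adhesion molecules of the immunoglobulin superfamily. They were chosen by name, 35 genes in all, and every probe set whose annotated symbol was one of these names was taken. The Affymetrix mouse expression array carried 71 such probe sets, for 32 of the genes, among 22626 probe sets that are not controls and 12393 genes with a single annotated symbol; Itga1, Pcdh19 and Fat1 were not analysed here. The study exposed mesenchymal cells of the urogenital sinus, from which the prostate forms in the fetus, to estradiol (E2). The cells came from male CD-1 mouse fetuses at gestation day 17, were used at first passage, and spent 3 days in estrogen-free medium before treatment. RNA of 3 samples given 100 nM E2 for 4 days was hybridized, and of 3 control samples given the ethanol vehicle for the same time. Before passage the cells grew in whole serum whose steroid hormones had not been removed. From seeding after passage to harvest, cells of both groups were kept in 690 pM DHT, an androgen that cannot be aromatized to estrogen. Every difference below is therefore between E2 and vehicle in the presence of androgen. The cultures are primary cells, parted from epithelium by letting it settle, and the study speaks of 3 replicate samples per treatment without saying whether they came from separate cell isolations. The p-values therefore set each difference only against the spread among these samples. That spread may be technical and may leave out variation between cell isolations.

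Integrins are heterodimers of an alpha and a beta chain that bind matrix proteins such as fibronectin, laminin and collagen outside the cell and couple them to actin inside it. Cadherins hold neighboring cells together through calcium-dependent contacts between like molecules, and the catenins tie their tails to the cytoskeleton. Immunoglobulin adhesion molecules bind one another without calcium, or bind integrins on other cells, and serve in leukocyte contact, nerve growth and cell junctions. In the urogenital sinus such molecules are part of the setting in which mesenchyme and the budding epithelium meet.

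Signals were fluorescence values on a linear scale, in units, and each array was scaled to its own median before the groups were compared. The deposited medians were 13.7 to 21.8 units in E2 and 14.0 to 19.9 units in control. On log2 values the arrays correlated at 0.934 to 0.960 within a group and at 0.922 to 0.950 between groups. E2 replicate 2 and control replicate 3 stood apart in the 5′ probe set for 18S ribosomal RNA, at 361 and 345 units, against 21.6 to 44.9 units on the other 4 arrays, and the differences of Alcam, Icam1, Cdh2, Cdh15, Itga7, Itga8 and Itgb1 are given without them too. Markers of the labelled cell type were present: all 11 mesenchymal genes (Vim, Col1a1, Pdgfra, Twist1 and others) were above the filter, with a summed signal of 14884 to 15701 units in E2 and 15404 to 17477 units in control. Of 12 epithelial markers 4 were above the filter, Krt18 in both groups and Krt8, Krt14 and Krt19 through E2 alone. Epcam, Krt5 and Cldn3 were among those below 10 units in both groups. Of 9 endothelial markers 4 were above it (Kdr, Flt1, Emcn and Egfl7), with Pecam1 and Tie1 among those below, and all 12 macrophage and leukocyte genes were above that filter.

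A probe set was tested where its mean, as deposited, reached 10 units in at least 1 group. That left 45 member probe sets for 25 genes, of which 41 passed in both groups, 3 only through E2 (Itga8, 1 of Itgb1 and 1 of Cntn1) and 1 only through control (1 of Jam2). Itga2, Itga4, Itgb3, Itgb7, Cdh1, Cdh5 and Nrcam had every probe set below 10 units in both groups and were not tested. With limma's moderated test and Benjamini-Hochberg adjustment over all 14223 probe sets, 2 member probe sets were lower in E2 at an adjusted p under 0.05 and 0 were higher. Over all probe sets the same calls took 0.253% (lower) and 0.492% (higher). Both calls were of Alcam, so 1 gene of 25 was called, and the genes without a call are not shown to be unchanged. At an unadjusted p under 0.05, 4 member probe sets were lower and 3 higher, against 4.55% and 3.44% of all probe sets. The study's cutoffs of 1.5-fold and an unadjusted p of 0.05 or less, applied to the same fit, took 3 lower and 3 higher, against 1.88% and 2.06% of all. In 4 member probe sets every E2 array was below every control array, and in 4 every E2 array was above, against 8.49% and 5.72% of all probe sets. The median log2 difference, E2 minus control, was -0.06 over the 45 member probe sets and -0.04 over all probe sets tested.

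**Figure D1:**
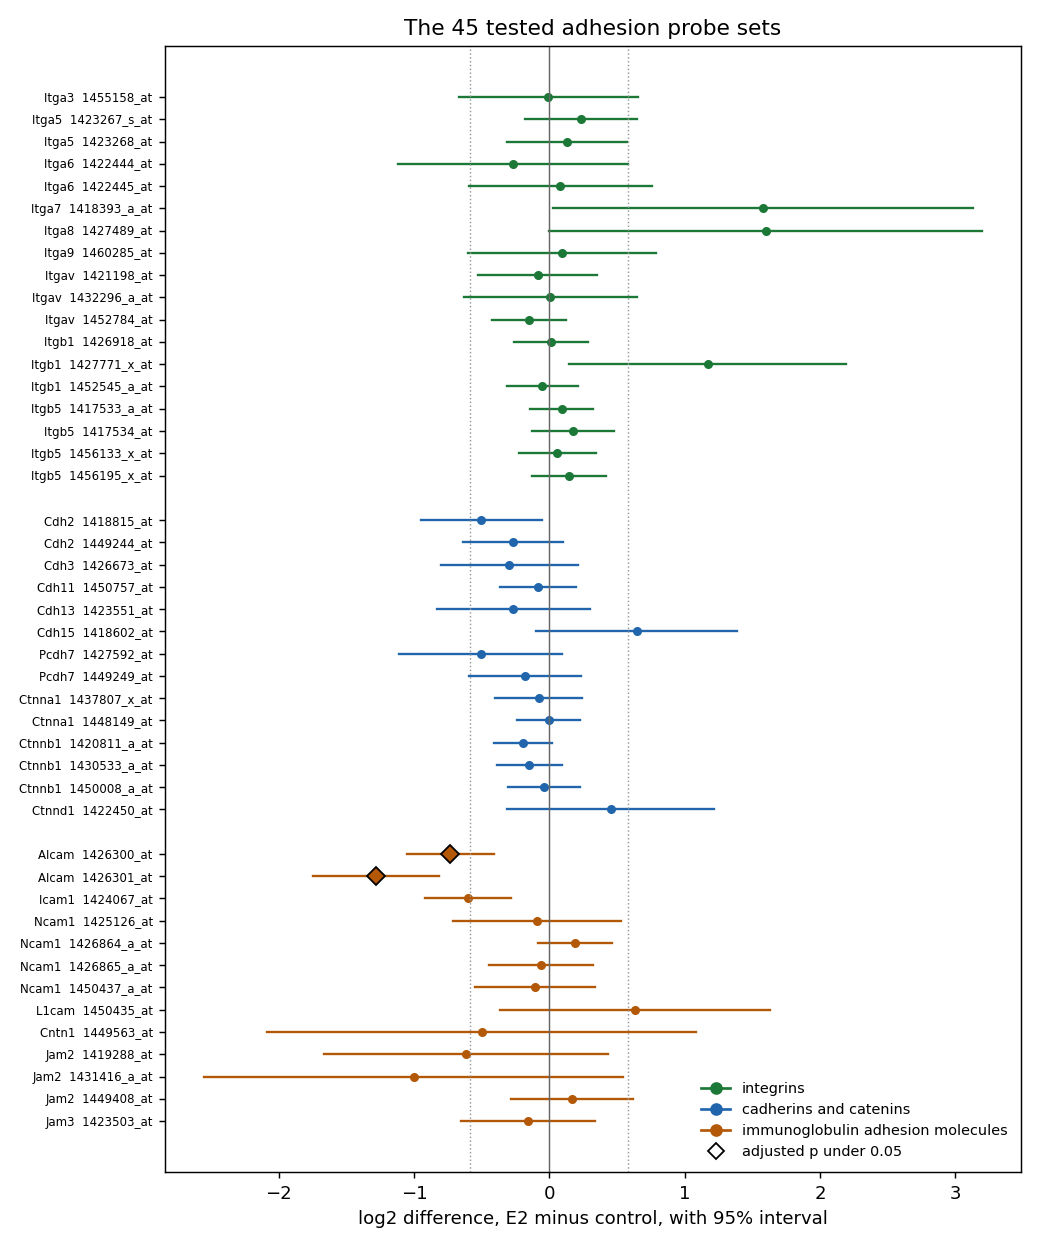
Log2 difference in signal, E2 minus control, for each of the 45 tested member probe sets, with its 95% interval from limma (3 arrays a group), grouped by family from top to bottom; dotted lines mark 1.5-fold. The 2 Alcam probe sets, drawn as diamonds, are those with an adjusted p under 0.05, and most other intervals cross 0.

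Alcam and Icam1, both of the immunoglobulin family, carried the clearest differences, and their promoters are shown here because the estrogen receptors, which bind E2, are DNA-binding transcription factors. Alcam (CD166) binds itself and CD6 on lymphocytes. Icam1 is the ligand of the leukocyte integrin that Itgb2 forms with Itgal, and NF-κB is a known regulator of it. Each sequence below is the 250 bases before the RefSeq gene start in GRCm38.p6, written 5′ to 3′ on the gene's own strand. The Alcam window is chr16:52453082-52453331, minus strand, and the Icam1 window chr9:21015690-21015939, plus strand. Capitals mark the Sp1 box (GGGCGG, or its complement CCGCCC) in both and the NF-κB site (GGAAATTCC) in Icam1.
Alcam: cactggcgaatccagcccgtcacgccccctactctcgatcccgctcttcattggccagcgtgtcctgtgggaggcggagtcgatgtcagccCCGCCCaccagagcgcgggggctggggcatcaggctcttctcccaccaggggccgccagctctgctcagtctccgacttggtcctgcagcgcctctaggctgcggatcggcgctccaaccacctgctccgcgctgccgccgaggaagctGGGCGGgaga
Icam1: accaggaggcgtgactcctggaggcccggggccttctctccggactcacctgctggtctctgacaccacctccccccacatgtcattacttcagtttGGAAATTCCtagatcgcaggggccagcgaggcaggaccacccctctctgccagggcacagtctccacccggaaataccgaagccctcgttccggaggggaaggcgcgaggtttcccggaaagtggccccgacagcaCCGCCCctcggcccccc
The search covered both strands. Sp1 boxes began at -159 and -10 in Alcam and at -17 in Icam1, counted back from the gene start, and 32.7% of 32851 mouse windows of this length hold at least 1. The NF-κB site of Icam1 began at -153, in a motif held by 0.286% of windows, and Alcam had 0. This motif was added after the windows had been read, so its match in Icam1 is no test and the share gives it no weight. The estrogen response element, GGTCA and TGACC separated by 3 bases of any kind, had 0 matches in either window and is held by 0.0639% of all windows. One arm of it alone, GGTCA, which the full element contains, had 0 matches in either and is held by 35.2%, and the AP-1 site TGANTCA had 0 in either, against 6.75%. The E-box CANNTG was found 1 time in Alcam and 2 times in Icam1, and 66.2% of windows hold it. None of the matches in these 2 windows overlapped one of another motif. The windows of Itga8 and Itgb1 were searched because of probe sets that passed the filter through E2 alone, so they bear on no result. They also held 0 estrogen response elements and 0 single arms. Itga8 held E-boxes at -229 and -128, and Itgb1 an Sp1 box at -151. Windows of Itga7 and Cdh2 are not reported here.

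Alcam fell in E2 by both of its probe sets. By the brighter probe set Alcam had 65.4, 64.7 and 71.1 units in the E2 arrays and 103, 122 and 110 units in the control arrays. By the dimmer one it had 32.3, 25.5 and 25.3 units in the E2 arrays and 89.7, 58.3 and 57.4 units in the control arrays. In both probe sets every E2 array lay below every control array, and the highest value by the dimmer was that of control replicate 1. The brighter gave 67.1 ± 3.48 units in E2 and 111 ± 9.90 units in control (SD, n = 3 each), a log2 difference of -0.73 (SE 0.15, 95% interval -1.05 to -0.41, adjusted p = 0.0374 by limma), or 60.2% of control. The dimmer gave 27.7 ± 3.97 units in E2 and 68.4 ± 18.4 units in control, a log2 difference of -1.28 (SE 0.22, 95% interval -1.75 to -0.82, adjusted p = 0.0101 by limma), or 41.1% of control. Both read the same gene on the same arrays and are not independent measurements. The gap between the 2 probe sets was 0.55 log2 units wider in E2 than in control. With 3 arrays a group an exact permutation test of that gap cannot give a p below 0.1 (two-sided p = 0.2), so it does not say whether the 2 probe sets differ.

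The Alcam calls stood close to the threshold. With any single array left out, the brighter probe set had an adjusted p of 0.0502 to 0.251 and was no longer called, while its log2 difference stayed between -0.79 and -0.66. For the dimmer probe set the call was lost without control replicate 1 (log2 difference -1.07, adjusted p = 0.0680) and stood without each of the other arrays. Both calls were also lost with values as deposited, with eBayes without trend and with an ordinary linear model (adjusted p of 0.181, 0.163 and 0.392 for the dimmer and 1.0, 0.196 and 0.269 for the brighter), and the brighter with the replicate number as a block (0.0972). Without E2 replicate 2 and control replicate 3 together, the differences were -0.72 (adjusted p = 0.0796) by the brighter and -1.34 (adjusted p = 0.0205) by the dimmer.

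Icam1 was also lower in every E2 array, short of the adjusted threshold. It had 89.2, 114 and 118 units in the E2 arrays and 159, 155 and 170 units in the control arrays. The groups did not overlap, and E2 replicate 1 was the lowest of all. The means were 107 ± 15.5 units in E2 and 161 ± 8.04 units in control (SD, n = 3 each), a log2 difference of -0.60 (SE 0.15, unadjusted p = 0.0012, adjusted p = 0.109 by limma). It met the study's cutoffs, but was short of 1.5-fold with quantile normalization (-0.56), with log2(value + 16) (-0.53), without E2 replicate 1 (-0.47) and without control replicate 3 (-0.56), and as deposited its unadjusted p was 0.137. Of 17 alternatives 1, the weighting of arrays by their quality, called it (adjusted p = 0.0421). Without E2 replicate 2 and control replicate 3 the difference was -0.61 (adjusted p = 0.135).

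Because Icam1 and Alcam are also expressed by leukocytes and macrophages, the 12 macrophage and leukocyte markers were read on the same arrays. All 12 were lower in sign, with a median log2 difference of -0.44, where 8046 of all 14223 probe sets tested were lower in sign. Limma called 0 of the 12, and 3 were lower at an unadjusted p under 0.05, against 4.55% of all probe sets. C1qb, a complement subunit made by macrophages, had 24.7, 20.7 and 14.9 units in E2 and 31.1, 58.9 and 55.1 units in control (log2 difference -1.24, adjusted p = 0.063). The summed signal of the list was 622 to 743 units in E2 and 692 to 1122 units in control, so the groups overlapped. None of the 12 was at 0, and Ptprc, which all leukocytes carry, averaged 12.5 units in E2 and 15.5 units in control. The part of such cells in the Alcam and Icam1 results was not tested, and in bulk RNA fewer cells of a type and less RNA per cell cannot be told apart.

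**Figure D2:**
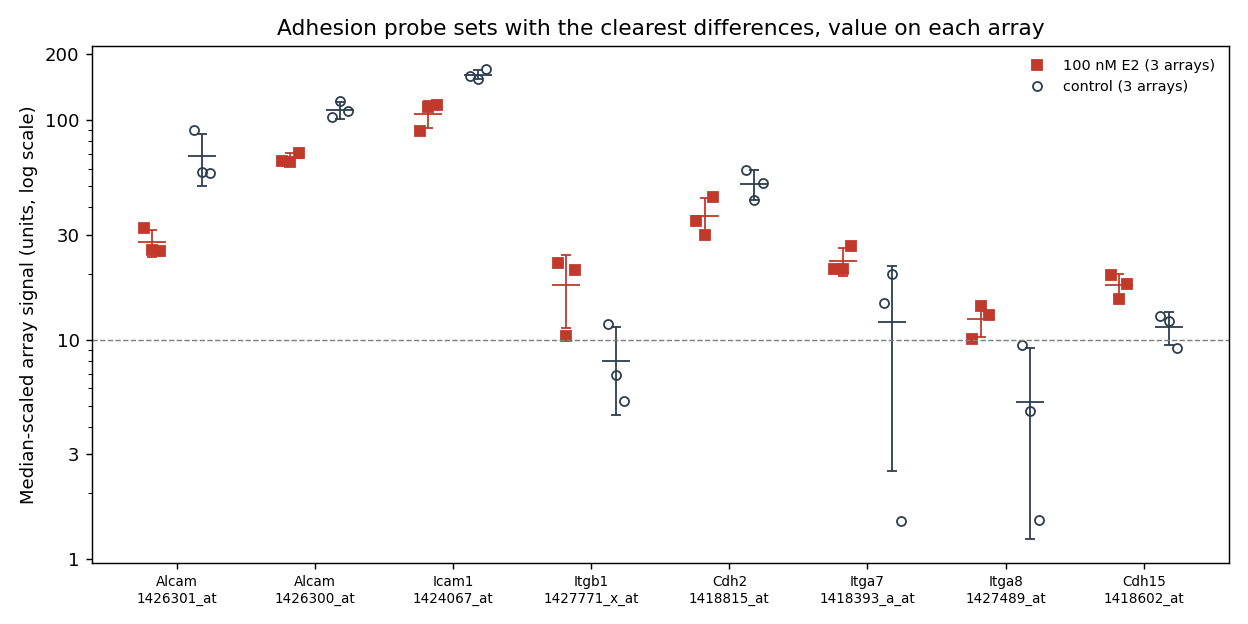
Median-scaled signal in units (log axis) on each of the 6 arrays for 8 member probe sets, with filled squares for E2, open circles for control, and the mean and SD of the 3 arrays as a bar. The dashed line is at 10 units. The E2 arrays of Alcam and Icam1 lie below all their control arrays, and the control arrays of Itga7 and Itga8 spread down to 1.496 and 1.508 units.

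The other immunoglobulin molecules gave no call. Ncam1, the neural cell adhesion molecule, had 275, 295 and 309 units in E2 and 234, 247 and 292 units in control by its brightest probe set (log2 difference 0.19, 95% interval -0.08 to 0.47), with the groups overlapping, and its other 3 tested probe sets were between -0.11 and -0.06. Jam2 and Jam3 are junctional adhesion molecules that pair at cell contacts. The probe sets of Jam2 differed in sign, with 95% intervals that overlapped. The brightest had 42.7, 40.6 and 40.4 units in E2 and 45.7, 28.2 and 38.5 units in control (0.17, 95% interval -0.29 to 0.62). The other 2 tested, both dim, were at -0.62 (-1.67 to 0.44) and -1.0 (-2.55 to 0.54), with E2 arrays down to 4.75 and 1.68 units. The probe set at -1.0 entered the test through control alone, which favored a lower value in E2. Jam3 was at -0.16. The endothelial markers, read because endothelium carries Jam2 and Cdh5, had a summed signal of 104 to 118 units in E2 and 117 to 136 units in control. L1cam, a neuronal guidance molecule, averaged 18.5 ± 5.86 units in E2 and 13.0 ± 7.05 units in control (0.63, 95% interval -0.37 to 1.63). Cntn1, an axonal contactin, was at -0.50 with E2 values of 11.01, 1.88 and 14.6 units on either side of the filter. The E2 and control arrays overlapped for each of these genes. Of the 8 Schwann and neural markers on the array 2 were above the filter, and Sox10 and S100b were below it, with a summed signal of 51.3 to 87.6 units in E2 and 69.7 to 73.7 units in control.

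Among the cadherins 0 of 14 tested probe sets passed limma's adjusted threshold, against 0.253% (lower) and 0.492% (higher) of all probe sets. At an unadjusted p under 0.05, 1, of Cdh2, was lower, against 4.55% of all. Cdh2 is N-cadherin, the main classical cadherin of mesenchymal cells. By the dimmer of its 2 probe sets Cdh2 had 34.8, 29.8 and 44.7 units in E2 and 59.2, 43.3 and 51.7 units in control (log2 difference -0.50, unadjusted p = 0.030, adjusted p = 0.572). E2 replicate 3 lay above control replicate 2, so the groups overlapped, and the brighter gave -0.27 (95% interval -0.64 to 0.11). Without E2 replicate 2 and control replicate 3 the first difference was -0.36 (unadjusted p = 0.143). Cdh11, the mesenchymal cadherin of bone and synovium, had 278, 252 and 302 units in E2 and 260, 328 and 296 units in control (-0.09, 95% interval -0.37 to 0.20). Cdh13, a cadherin anchored in the membrane without a cytoplasmic tail, was at -0.27. The protocadherin Pcdh7 was at -0.51 and -0.18 by its 2 probe sets. Cdh3, P-cadherin of basal epithelium, was at -0.30.

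Cdh15, the M-cadherin of skeletal muscle, went the other way from most of the family, with 19.8, 15.3 and 18 units in E2 and 12.8, 12.2 and 9.14 units in control. The 2 groups did not overlap, but the difference of 0.65 (SE 0.35) had an adjusted p of 0.687, and without E2 replicate 2 and control replicate 3 it was 0.60. Of 10 skeletal muscle markers 1 was above the filter, with a summed signal of 66.2 to 71.2 units in E2 and 60.7 to 71.1 units in control. Cdh1, E-cadherin of epithelium, was not tested, with 0.829, 12.0 and 0.999 units in E2 and 4.42, 0.725 and 6.93 units in control. Only E2 replicate 2 was over 10 units. The epithelial list beside it had 4 of 12 genes above the filter, with a summed signal of 151 to 156 units in E2 and 61.2 to 117 units in control. One of them, Krt18, a keratin of simple epithelium, rose, with 83.5, 60.4 and 72.1 units in E2 and 42.3, 38.2 and 36.8 units in control (0.87, adjusted p = 0.0416). Its part in any cadherin value was not tested.

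The catenins link cadherin tails to actin, and Ctnnb1 and Ctnna1 were measured with narrow intervals. Ctnnb1, beta-catenin, which is also the transcriptional arm of Wnt signaling, had 1002, 985 and 1037 units in E2 and 1139, 1123 and 1201 units in control by its brightest probe set. All E2 arrays were below all control arrays, by a log2 difference of -0.20 (SE 0.10, 95% interval -0.41 to 0.02, adjusted p = 0.664). Its other 2 probe sets gave -0.15 and -0.04, with overlapping groups. Ctnna1, alpha-catenin, had 442, 459 and 493 units in E2 and 478, 465 and 454 units in control by its brighter probe set, with a log2 difference whose 95% interval ran from -0.24 to 0.23. Ctnnd1, p120-catenin, which stabilizes cadherins at the membrane, scattered more widely, with 28.0, 16.1 and 37.1 units in E2 and 11.9, 26.6 and 20.6 units in control (0.45, 95% interval -0.31 to 1.22).

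Among the integrins 0 of 18 tested probe sets passed limma's adjusted threshold, against 0.253% (lower) and 0.492% (higher) of all probe sets. At an unadjusted p under 0.05, 3 dim ones were higher, against 3.44% of all. Of the 3, Itga8 and a probe set of Itgb1 passed the filter through E2 alone. That fixed the order of their deposited means and favored a higher fitted value in E2, so their differences are no result, which leaves Itga7. Itga7 pairs with Itgb1 as a laminin receptor of muscle. All 8 smooth muscle markers read (Acta2, Tagln and others) were above the filter, and limma called 0 of them. Their summed signal was 7312 to 8327 units in E2 and 6985 to 8689 units in control, and the part of such cells in Itga7 was not tested. Itga7 had 21.0, 20.9 and 26.6 units in E2 and 14.7, 19.97 and 1.496 units in control (log2 difference 1.58, SE 0.72, adjusted p = 0.624). The groups did not overlap, but control replicate 2 came within 1 unit of the lowest E2 array, and the difference was 0.41 without control replicate 3 and 0.47 without E2 replicate 2 as well. Itga8, whose dimer with Itgb1 binds nephronectin and acts in kidney budding, had 10.1, 14.2 and 12.9 units in E2 and 9.41, 4.71 and 1.508 units in control (1.598, SE 0.75, adjusted p = 0.626). It entered the test through its E2 arrays alone, which favored a higher value there. The Itga8 difference was 0.88 without control replicate 3 and 0.78 without E2 replicate 2 as well. With values below 10 units set to 10, the differences were 0.67 for Itga7 and 0.30 for Itga8.

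Itgb1, the beta chain shared by most of the alpha chains here, had probe sets with unlike differences. By its brightest probe set Itgb1 had 755, 844 and 742 units in E2 and 771, 720 and 949 units in control, a log2 difference of -0.05 (95% interval -0.31 to 0.21). By the next brightest the difference was 0.01 (95% interval -0.26 to 0.28). A dim probe set had 22.2, 10.4 and 20.8 units in E2 and 11.8, 6.87 and 5.23 units in control (1.17, unadjusted p = 0.028, adjusted p = 0.556). Without E2 replicate 2 and control replicate 3 this difference was 1.26. Its groups overlapped, it too was kept through E2 alone, and the suffix _x_at of its name marks probes that may also match other transcripts.

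The remaining alpha and beta chains had intervals that spanned 0. Itgb5, the partner of Itgav in a vitronectin receptor, had 538, 524 and 528 units in E2 and 524, 461 and 509 units in control by its brightest probe set (0.09, 95% interval -0.14 to 0.32). The lowest E2 array was barely above the highest control array, and its other 3 probe sets gave 0.06 to 0.18 with overlapping groups. Itgav had 181, 170 and 200 units in E2 and 203, 213 and 195 units in control by its brightest probe set (-0.15, 95% interval -0.42 to 0.12). Itga5, the fibronectin receptor chain, had 246, 138 and 204 units in E2 and 182, 173 and 135 units in control by its brighter probe set (0.24, 95% interval -0.18 to 0.65). The laminin receptor chains Itga3 and Itga6 and the tenascin-binding Itga9 were dim, with differences from -0.27 to 0.09. Of the 17 member probe sets averaging at least 100 units as deposited in a group, 14 had a 95% interval that lay within 1.5-fold either way, whereas over all 45 this held for 18.

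**Figure D3:**
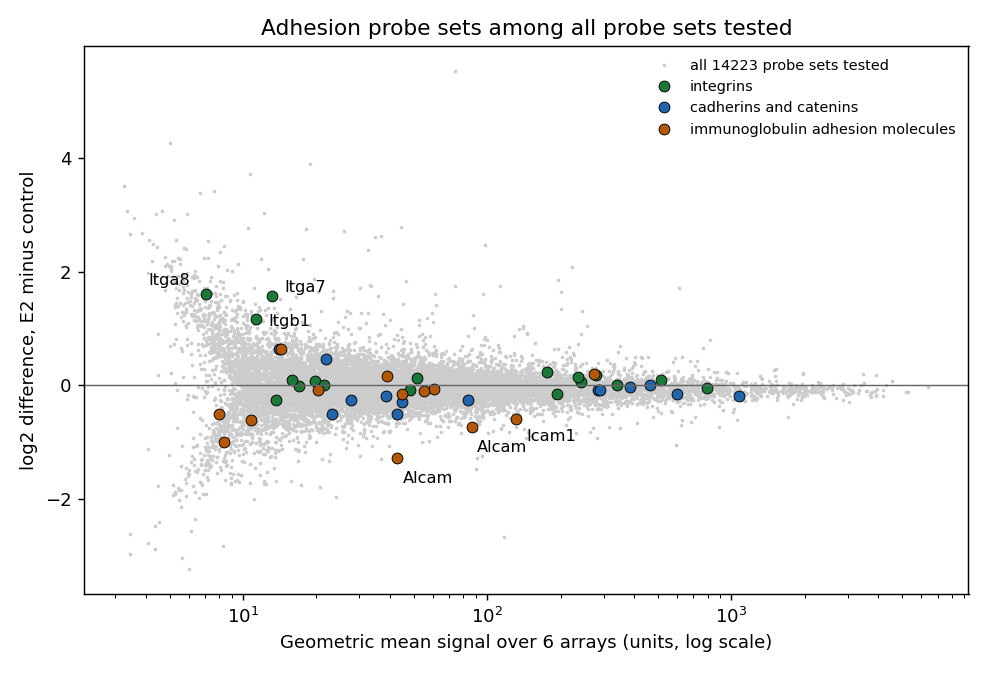
Log2 difference, E2 minus control, against the geometric mean signal over the 6 arrays (units, log axis), with all probe sets tested in grey and the members colored by family. The higher integrin probe sets lie at the dim end, where the grey cloud is wide, and Alcam and Icam1 lie below the cloud's center at brighter signal.

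Over all probe sets tested, 8046 of 14223 were lower in sign. Limma called 0.253% of all lower and 0.492% higher, and the study's cutoffs took 1.88% lower and 2.06% higher. The integrins had 13 of 18 probe sets higher in sign and a median log2 difference of 0.09, with 0 called. The 3 integrin probe sets higher by the study's cutoffs include those of Itga8 and Itgb1 that entered the test through E2 alone. That entry favored a higher value in E2, so only Itga7 counts there. Both probe sets are also among the 13 and enter the integrin median. The cadherins and catenins had 12 of 14 lower in sign and a median of -0.17, with 0 called and 0 past the study's cutoffs. The immunoglobulin molecules had 10 of 13 lower in sign and a median of -0.16, with 2 called lower and 3 lower by the study's cutoffs. The 2 called were both of Alcam, and the 3 were these and Icam1. A Jam2 probe set among the 10 entered the test through control alone, which favored a lower value in E2. A Cntn1 probe set among them entered through E2 alone. With 1 probe set per gene, the brightest, the medians were 0.09, -0.18 and -0.16 over 9, 9 and 7 genes. Counted that way, 6 of 9 integrin genes were higher, Itga8 among them, 7 of 9 cadherin and catenin genes were lower, and 4 of 7 immunoglobulin genes were lower. Alcam, Ncam1 and Jam2 gave the immunoglobulin family several probe sets each. These counts and medians are descriptions, and the difference between families was not tested.

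The arrays of the 2 groups overlapped in every family. Over the tested probe sets, the median deviation of the integrins from the control mean was 0.15, 0.03 and 0.10 in the E2 arrays and 0.10, 0.06 and -0.05 in the control arrays. For the cadherins it was -0.08, -0.22 and -0.09 in the E2 arrays and -0.09, 0.01 and 0.04 in the control arrays. For the immunoglobulin molecules it was 0.05, -0.24 and -0.10 in the E2 arrays and -0.11, -0.05 and 0.17 in the control arrays. E2 replicate 2 was the lowest array in the last 2 families, and without it and control replicate 3 the median of the immunoglobulin molecules was 0.01 and that of the cadherins -0.07. The filter was reapplied for that fit, which tested 48 member probe sets, against 45.

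**Figure D4:**
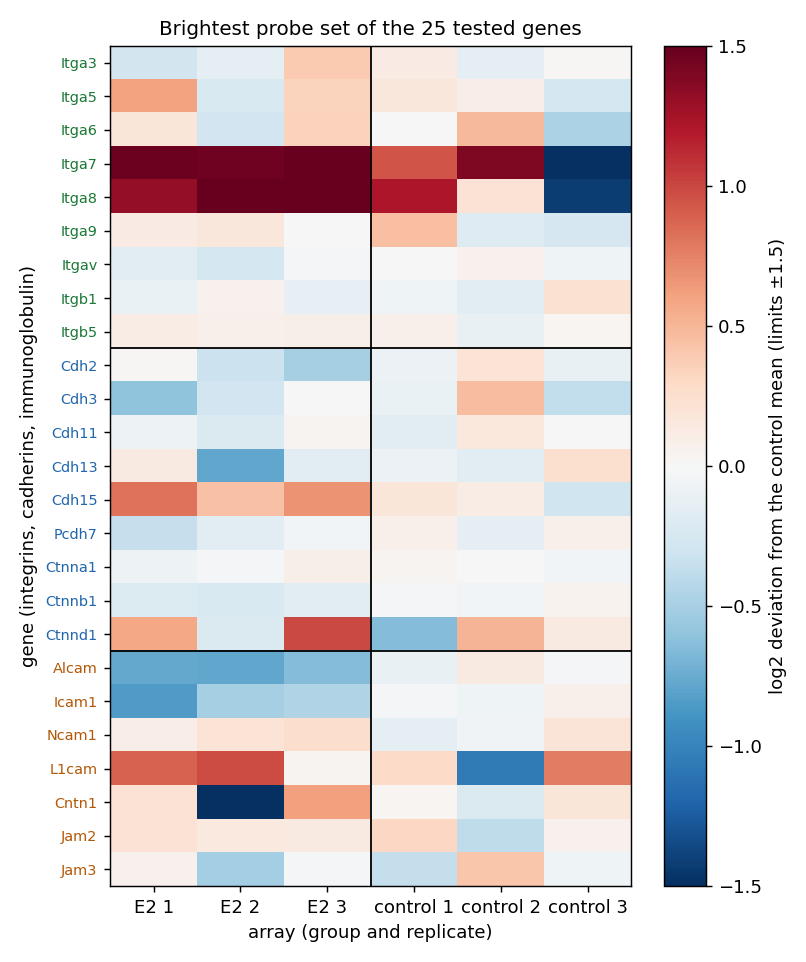
Log2 deviation from the control mean on each array (E2 columns left, control columns right) for the brightest probe set of each of the 25 tested genes, grouped by family, with the color scale limited to ±1.5. Alcam and Icam1 are lower on all E2 arrays, and control replicate 3 is the lowest array for Itga7 and Itga8.

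The neighbors of these genes were read from the same fit, each by its brightest probe set. Over all probe sets tested, limma called 0.253% lower and 0.492% higher at an adjusted p under 0.05. At an unadjusted p under 0.05, 4.55% of all were lower and 3.44% higher. Of 9 other integrin genes on the array 3 were above the filter, limma called 0 of them, and 1 had an unadjusted p under 0.05. That was Itgbl1, a secreted protein resembling integrin beta chains, with 40.8, 54.6 and 50.8 units in E2 and 63.9, 93.3 and 84.2 units in control (-0.72, adjusted p = 0.151). Itgb2, the beta chain of leukocyte integrins, averaged 13.7 units in E2 and 21.1 units in control (-0.78, adjusted p = 0.691), and its partners Itgal and Itgam were below 10 units. Of 22 genes for integrin linkers and signaling 21 were tested, 0 were called, and 2 had an unadjusted p under 0.05, both higher: Cav1, the caveola coat protein, at 0.30 and Cd151, a tetraspanin bound to laminin receptors, at 0.30. The linkers Tln1, Vcl and Ilk, which join beta chain tails to actin, were at -0.22, -0.08 and 0.10.

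Among matrix ligands of integrins 17 of 18 were tested, 13 of them lower in sign, and limma called 1, which was higher. This was Thbs2, thrombospondin 2, whose mean was 1106 units in E2 and 338 units in control (1.72, adjusted p = 1.76e-06). At an unadjusted p under 0.05, 1 was lower and 1, Thbs2, was higher. The lower one was Postn, periostin (-0.37, unadjusted p = 0.011, adjusted p = 0.381 by limma). Fn1 was at -0.14. Of 19 other cadherins and partners 7 were tested, 0 were called by limma and 1 had an unadjusted p under 0.05. It was Cdh6, K-cadherin, with 34.1, 29.5 and 27.5 units in E2 and 57.6, 50.1 and 50.6 units in control (-0.80, adjusted p = 0.0817), and its groups did not overlap. Of 21 other immunoglobulin adhesion molecules 12 were tested, with 0 called by limma and 0 at an unadjusted p under 0.05. Vcam1, the ligand of the Itga4 and Itgb1 dimer, had 427, 424 and 426 units in E2 and 470, 462 and 557 units in control, without overlap (-0.22, adjusted p = 0.687). Its other 2 probe sets, outside that count, had smaller p-values. One had 183, 157 and 164 units in E2 and 205, 240 and 215 units in control (-0.39, unadjusted p = 0.0102, adjusted p = 0.374), without overlap, and the other had 267, 298 and 195 units in E2 and 281, 324 and 385 units in control (-0.39, unadjusted p = 0.0324, adjusted p = 0.579), with overlap.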

How the data were processed

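Per the labels and the study's methods, RNA of 3 E2 and 3 control samples was hybridized to 1 array each. The authors deposited linear intensity values, 1 per probe set and array, made with Affymetrix software. The sources used here do not give its version, signal algorithm, background correction or scaling. Array number limits the precision. After 64 control probe sets were removed, each array was scaled to its median (common median 17.2 units), because the medians differed by 1.59 times. Probe sets averaging at least 10 units as deposited in E2 or control were kept, and log2 values were fitted in R 4.3.3 with limma 3.58.1 (lmFit, eBayes with trend) as two-sided tests of E2 minus control, adjusted by Benjamini-Hochberg over all probe sets kept. Symbols came from the platform annotation: 20380 probe sets had 1 symbol, 691 several (not named) and 1555 were not listed. The brightest probe set has the highest mean log2 value, and genes of the marker and neighbor lists were read by it alone. The fit was tested on simulated data.

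The members and gene lists were chosen with earlier results of these data known. Array values are given for members past a call rule, at an unadjusted p under 0.05 or without overlap at 1.5-fold, for their partner chains or catenins, and for genes whose probe sets disagreed in sign by over 0.5; Ncam1, Cdh1, Cdh11, Itga5, Cntn1 and genes outside the 3 families were named after their values were seen. The NF-κB motif was added after the promoter windows had been read. Same-numbered E2 and control samples did not deviate together (correlations 0.008, -0.05 and -0.06), so the numbers were not taken as pairs. Alternatives were quantile normalization, a replicate block, array weights, log2(value + 16), values as deposited, a filter of 100 units or none, an ordinary linear model, eBayes with no trend, low values raised to 10 units, and arrays left out.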

Additional observations from a re-analysis of the deposited data

How the results depend on the processing

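Main values were 2 member probe sets called lower, 3 lower and 3 higher by the study's cutoffs, and medians of 0.09 (integrins), -0.17 (cadherins) and -0.16 (immunoglobulin molecules). The count called lower was 0 with values as deposited, 0 with eBayes without trend, 0 with an ordinary linear model, 1 with a filter at 100 units, which leaves out Alcam's dimmer probe set, 1 with the replicate block, and 0 to 1 with arrays left out (0 without control replicate 1). With array weights it was 3, with Icam1 added. Over all probe sets the replicate block called 27 lower and 61 higher, against 36 and 70, and under it Alcam by the brighter probe set had an adjusted p of 0.0972. Alcam was called in 6 of 17 alternatives by the brighter probe set and by the dimmer in 12 of 16, with the sign kept in all. By the study's cutoffs the lower count was 1 as deposited, and 2 to 5 with arrays left out (5 without control replicate 2). The higher count was 1 with quantile normalization, 0 with log2(value + 16), 0 with the filter at 100 units, 1 with an ordinary linear model, 1 with array weights and 0 to 3 with arrays left out (0 without E2 replicate 1, E2 replicate 3 or control replicate 3, and 1 without control replicate 2).

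The integrin median was 0.043 to 0.16 with single arrays left out, highest without E2 replicate 2. The cadherin median was -0.082 with quantile normalization, -0.082 with the filter at 100 units and -0.19 to -0.066 with arrays left out. The immunoglobulin median was -0.60 with the filter at 100 units, -0.48 with each gene's probe sets averaged, and -0.34 (without control replicate 1) to 0.0054 with arrays left out, -0.32 without control replicate 3. The causes were not tested, except that the filter at 100 units leaves fewer probe sets. The 3 arrays a group and dim probe sets, where 1 array can set a difference, limit what could be called.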
